A study of Mus musculus with 2 samples.

Results

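Splice junctions that jump over annotated exons without being annotated themselves were collected from adult mouse cerebellum. The members are junctions on autosomes that the authors' table marks as unannotated, with reads in both replicates and at least 10 reads in all. Each end of such a junction is an end of an Ensembl 65 intron on the same strand, but no Ensembl 65 intron has both ends. The choice left 4568 junctions out of 1125475 in the table, or 15.4% of the 29613 unannotated autosomal junctions with as many reads. The members were chosen by their read counts and by the annotation, so the levels of the members are given as description, with no test. At the limit, 371 members had exactly 10 reads and 448 further candidates had 9, just outside it.

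The tissue was cerebellum of C57BL/6J littermates of both sexes, pooled, at 8 weeks of age, with no treatment named in the labels. RNA with poly-A tails and above 200 nucleotides was depleted of ribosomal RNA and sequenced strand by strand as paired ends. The 2 libraries form 1 group, so no groups could be compared and no test between conditions was possible. The labels number them as biological replicates but name the same donor record for both, so the spread between them may not cover the spread between animals. The junction table calls its replicates 1 and 2 and does not say which library each is. Levels fitted the tissue's markers. Pcp2, of Purkinje neurons, stood at 1585 and 1349 TPM (a length-scaled share of all transcripts) in the 2 libraries, and Gabra6, of granule neurons, at 336 and 269 TPM. Alb, of liver, stood at 0.01 and 0.03 TPM.

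When an exon is skipped, the splicing machinery joins the donor site of the exon before it to the acceptor site of the exon after it. Loss of an exon whose length is a multiple of 3 keeps the reading frame, whereas other lengths shift it. A shifted frame often reaches a stop codon early, and messages with a stop codon well before their last exon junction are commonly degraded by nonsense-mediated decay. Neurons are known for many regulated exons, among them very short microexons, in genes of channels, adhesion proteins, the cytoskeleton and synaptic release.

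The skipped exons on which the results turn are printed here, with the exon in capitals and the 15 bases of the neighbouring exon on either side in lower case, so that skipping joins the lower-case parts. They were read 5′ to 3′ from GENCODE M21 transcripts on the mm10 assembly. The first 7 keep the reading frame and were skipped in about 50% or more of the reads that could tell.
Epn1, exon of 75 bases at chr7:5093312-5093386, plus strand: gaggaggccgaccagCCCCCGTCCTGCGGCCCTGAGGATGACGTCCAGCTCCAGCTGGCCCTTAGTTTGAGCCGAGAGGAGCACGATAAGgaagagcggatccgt
Atp6v1h, exon of 54 bases at chr1:5101070-5101123, plus strand: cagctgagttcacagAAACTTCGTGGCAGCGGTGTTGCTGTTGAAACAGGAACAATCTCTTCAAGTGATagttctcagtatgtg
Camk2g, exon of 69 bases at chr14:20745792-20745860, minus strand: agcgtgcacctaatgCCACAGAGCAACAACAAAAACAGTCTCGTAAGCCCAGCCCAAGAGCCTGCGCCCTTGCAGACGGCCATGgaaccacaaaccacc
Ptprz1, exon of 21 bases at chr6:23024714-23024734, plus strand: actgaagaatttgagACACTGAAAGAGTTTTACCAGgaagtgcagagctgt
Cacna2d3, exon of 18 bases at chr14:29124666-29124683, minus strand: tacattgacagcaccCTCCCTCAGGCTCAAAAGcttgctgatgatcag
Supt5, exon of 12 bases at chr7:28330018-28330029, minus strand: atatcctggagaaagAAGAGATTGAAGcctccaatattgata
Nbea, exon of 9 bases at chr3:55994048-55994056, minus strand: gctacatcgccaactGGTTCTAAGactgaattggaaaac
A second set keeps the frame and was skipped less often, or is the exon of a splicing regulator.
Nfasc, exon of 15 bases at chr1:132593351-132593365, minus strand: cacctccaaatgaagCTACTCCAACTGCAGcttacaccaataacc
Nova1, exon of 72 bases at chr12:46713498-46713569, minus strand: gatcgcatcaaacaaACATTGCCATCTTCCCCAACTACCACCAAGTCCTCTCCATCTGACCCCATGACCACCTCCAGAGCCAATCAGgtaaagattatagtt
Rbfox2, exon of 51 bases at chr15:77231387-77231437, minus strand: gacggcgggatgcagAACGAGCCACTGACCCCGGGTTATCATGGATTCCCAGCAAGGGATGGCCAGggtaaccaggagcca
Loss of an exon of the third set shifts the frame, and the new frame met a stop codon more than 50 bases before the last exon junction of the transcript.
Dusp11, exon of 47 bases at chr6:85950514-85950560, minus strand: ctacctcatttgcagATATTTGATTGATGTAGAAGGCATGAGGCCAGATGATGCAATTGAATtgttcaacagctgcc
Ptbp2, exon of 34 bases at chr3:119724612-119724645, minus strand: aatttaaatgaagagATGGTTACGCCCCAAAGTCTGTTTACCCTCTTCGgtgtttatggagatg
Cntnap1, exon of 128 bases at chr11:101187000-101187127, plus strand: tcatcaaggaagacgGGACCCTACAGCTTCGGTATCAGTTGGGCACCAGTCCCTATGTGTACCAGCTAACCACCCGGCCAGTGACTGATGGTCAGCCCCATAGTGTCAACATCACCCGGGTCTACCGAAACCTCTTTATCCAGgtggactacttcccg

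The label of exon skipping held for most members but not for all. Both ends lay in 1 annotated transcript in 3411 junctions (74.7%), and these jump over at least 1 whole exon of that transcript. In 328 junctions (7.18%) the ends belonged to different transcripts of 1 gene, and 172 of these had no whole exon of the gene between their ends. In the remaining 829 (18.1%) the ends lay in different genes. The last group was small in number and large in reads, with 50.2% of the 329162 reads of all members, against 42.6% for junctions inside 1 transcript. Of the 20 members with the most reads, 17 joined different genes. The figures on exons, frames and shares that follow come from the junctions inside 1 transcript, and the others are described after them.

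The members held few of the reads over junctions. The table had 39145559 reads in replicate 1 and 38232764 in replicate 2, of which annotated junctions took 95.2% and members 0.425%. The median member had 21 reads, the middle 50% lay between 13 and 42, and the maximum was 12118. Annotated autosomal junctions with at least 10 reads, 144381 in number, had a median of 182 reads. After scaling for the total, 1044 members (22.9%) were at least 2-fold apart between the replicates, beside 8.42% of all autosomal junctions with at least 10 reads. They were split evenly, 520 higher in replicate 2 and 524 higher in replicate 1. Among the 969 members with at least 50 reads the number fell to 28 (2.89%), beside 0.994% of all junctions with as many reads. The part of read depth in this difference was not tested.

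**Figure D1:**
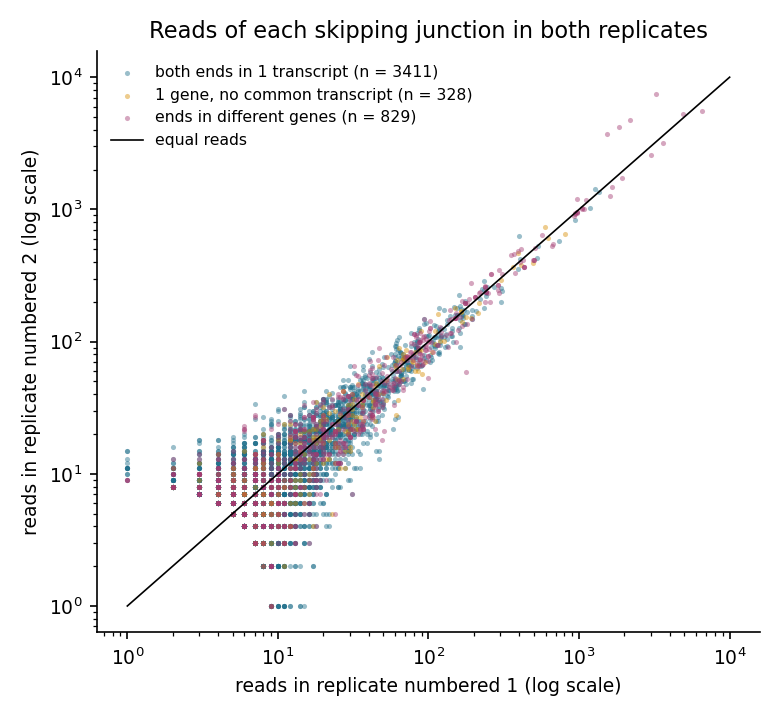
Reads of each of the 4568 members in replicate 1 (x axis) and replicate 2 (y axis), both on log scales, coloured by where the 2 ends lie. Points spread widely around the line of equal reads at low counts; among the most-read, 4 junctions between globin genes lie more than 2-fold above it, such as Hba-a1 to Hba-a2 with 3231 and 7408 reads.

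Skips of a single exon made up 2968 of the 3411 junctions inside 1 transcript (87.0%), with 323 over 2 exons, 76 over 3 and 44 over 4 or more. For each single-exon skip the share of skipping was taken as its reads over the sum of its reads and the mean reads of the 2 flanking introns that include the exon. Exons were counted along the annotated path with the fewest exons, and 2384 of the 2968 held only 1 distinct exon of the gene. Inclusion through other exons of the gene does not enter the share. The median share was 5.91%, with the middle 50% between 2.35% and 16.6%. It was 5.59% in replicate 1 and 5.70% in replicate 2. The median depends on the limit on reads: it was 3.61% at a minimum of 5 reads, 9.78% at 20 and 19.95% at 50, and 9.52% or 9.82% when 10 reads were asked of 1 replicate alone. In most of these places the annotated path carried far more reads than the skip. The share reached 10% in both replicates for 914 exons, 25% for 435 and 50% for 207, which is 6.97% of the single-exon skips. The shares of the 2 replicates followed each other over the 2968 exons (Spearman's rho 0.914, Pearson's r 0.954), which share their library pairs, and the median distance between them was 1.69 percentage points. Intervals given with shares below are 95% Clopper-Pearson intervals on the reads of both replicates. They cover counting error only, since reads copied by PCR are not independent molecules.

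**Figure D2:**
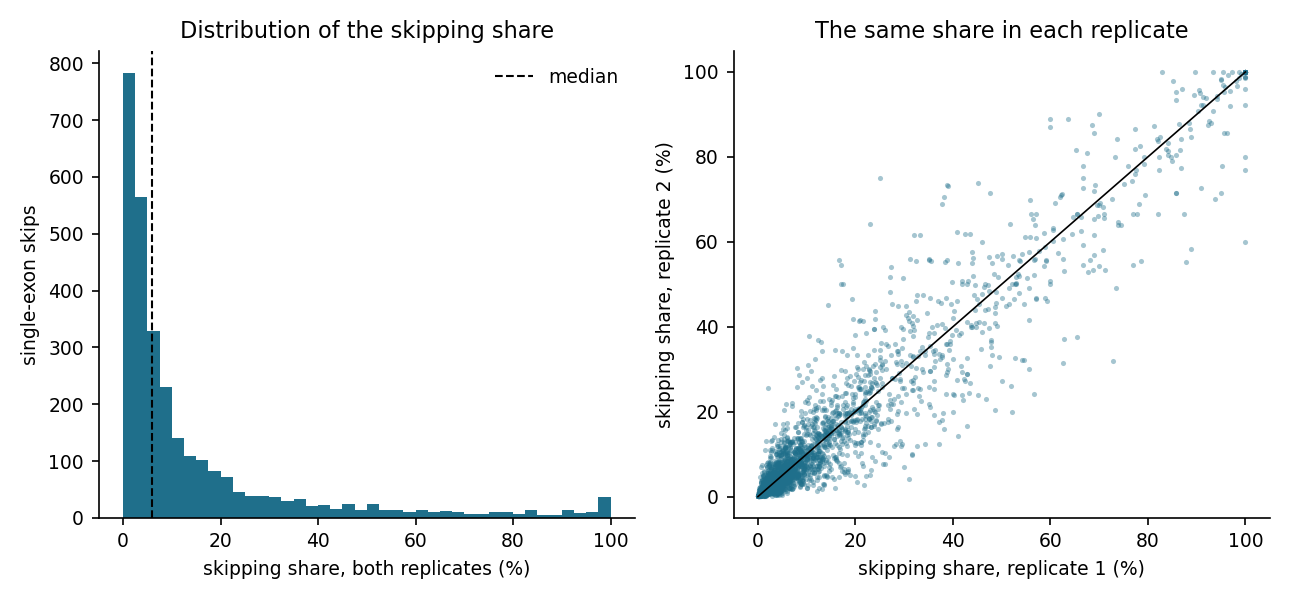
Left, the number of single-exon skips (y axis) by skipping share in percent (x axis, bins of 2.5 points) with the median of 5.91% dashed. Right, the share in replicate 1 (x axis) and replicate 2 (y axis) of each skip with the line of equality.

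Several of the most-read skips inside 1 transcript removed exons in frame from genes of membrane traffic and the cytoskeleton. Epn1 encodes epsin 1, an adaptor of clathrin-mediated endocytosis, and its 75-base exon was skipped by chr7:5044568-5045500 (mm9, plus strand). That junction had 1365 reads in replicate 1 and 1363 in replicate 2, whereas the introns into and out of the exon had 420 and 507 in all. The share was thus 86.7% and 84.3%, and 85.5% (84.2 to 86.7) over both, so the path without the exon was the main one in both replicates. Map4, a microtubule-associated protein, lost a 222-base exon in 947 and 835 reads, a share of 77.6% and 76.9%. Atp6v1h, a subunit of the vacuolar proton pump, lost 54 bases in 735 and 572 reads, a share of 84.1% and 80.6%. In each of these 3 genes the 2 replicates lay within 4 percentage points of each other and far above the median skip. Not all of the most-read skips removed a multiple of 3 bases. A 53-base exon of Mag, described below, had 2693 skipping reads and a share of 80.6% over both replicates.

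Further in-frame skips with many reads had shares from 4.73% to 83.0%. Pacsin2, an endocytic membrane-bending protein, lost 123 bases in 235 and 287 reads, with shares of 70.9% and 68.1%. Ap1ar, a regulator of the adaptor complex that sorts cargo from the Golgi, lost 99 bases in 228 and 252 reads, with shares of 82.2% and 83.7%. Snap91, the clathrin assembly protein of synaptic terminals, lost 108 bases in 522 and 427 reads. Its share was lower and nearly equal in both replicates, 35.3% and 35.4%. Ndrg3 lost 36 bases in 306 and 241 reads, but its gene was so highly read that the share came to 4.65% and 4.83%. Among these genes the share thus ran from under 5% in Ndrg3 to over 85% in Epn1. The genes named in this and the next 2 paragraphs beyond the naming rule were chosen after their values were seen.

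Channels and signalling enzymes showed the same kind of event. Camk2g, the gamma subunit of calcium/calmodulin-dependent kinase II, lost a 69-base exon in 537 and 531 reads. Its share was 57.6% and 57.7%, but its flanking introns differed, with 317 reads into the exon and 1250 out of it, so the share is 77.1% against the smaller and 46.1% against the larger. Cacna1e, a calcium channel pore subunit, lost 57 bases in 79 and 52 reads, a share of 77.5% and 81.9%. Ip6k2, an inositol phosphate kinase, lost 69 bases in 232 and 246 reads, and the exon was left in by few reads, with a share of 93.8% (91.3 to 95.7). These exons therefore stood in the annotation while the path around them carried more than 50% of the reads, by the mean of the flanking introns.

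The highest shares were those of exons that no read included. Both flanking introns were unread for 25 of the 2968 single skipped exons. Nbea, which encodes neurobeachin, a scaffold of membrane traffic at synapses, skipped a 9-base exon in 78 and 63 reads with none including it, so the share was 100% (97.4 to 100). Prdm10, a zinc finger protein, skipped 36 bases in 70 and 68 reads, and Papss2, an enzyme of sulfate activation, 15 bases in 35 and 42 reads, again with no read of inclusion. Several of these annotated exons were extremely short, and whether reads that include such exons were counted as fully was not tested. Rsph10b, Map4k5 and Eno4 had annotated exons of 3 bases, skipped by 58, 44 and 35 reads, and Dnm1, the dynamin of synaptic vesicle recovery, had an annotated exon of 2 bases skipped by 59 and 44. Ryr2, a calcium release channel of the endoplasmic reticulum, skipped 36 bases in 104 and 91 reads against 0 and 2 reads into the exon.

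**Figure D3:**
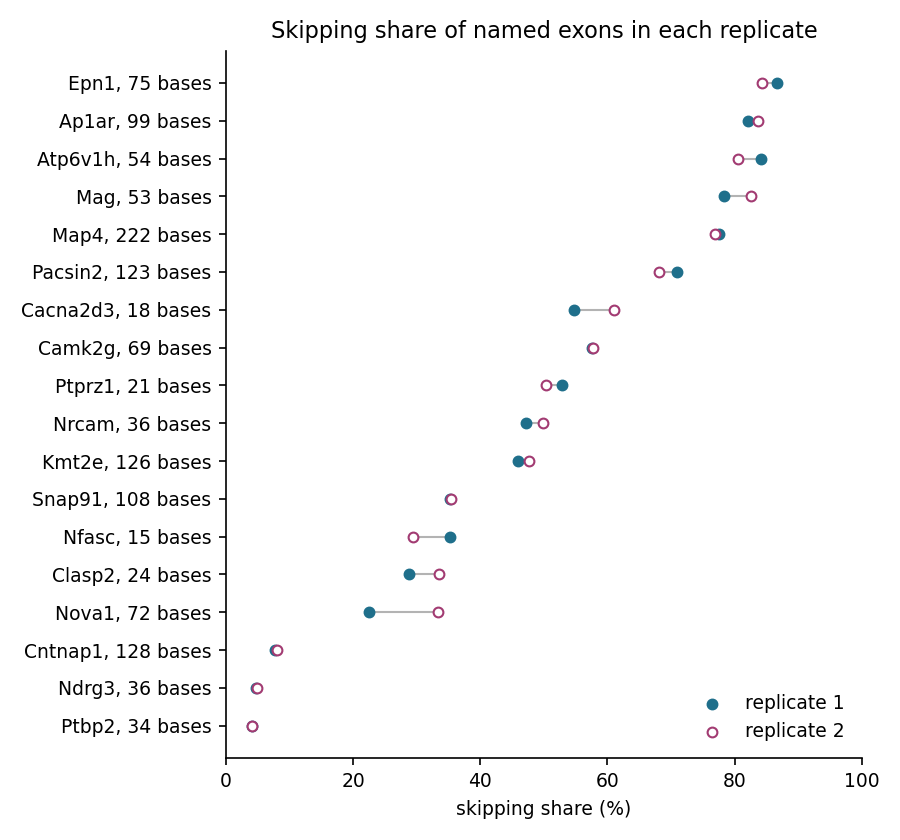
Skipping share in percent (x axis) of the most-read single-exon skip of 18 named genes (y axis, with exon length) in replicate 1 (filled) and replicate 2 (open), joined by a line. The shares run from about 4% in Ptbp2 to about 85% in Epn1, and the gap in Nova1, 22.5% and 33.3%, is the widest drawn.

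The skipped exons were of ordinary length, and over all of them lengths divisible by 3 were no more frequent than among other internal exons. The middle 50% of the 2968 lay between 78 and 150 bases with a median of 111, from 2 bases to 3626 in Pkd1, whose polycystin exon was skipped in 9 and 10 reads. Their length was a multiple of 3 in 1084 (36.5%), beside 39.7% of the 121922 annotated internal exons read on both sides, whose median length was 123. The short exons differed from this. Of 61 exons up to 27 bases, 51 (83.6%) were multiples of 3, whereas the share of such lengths was 43.1% at 28 to 60 bases and between 31.4% and 36.8% in the longer classes. The 39.7% covers internal exons of all lengths. No value for annotated exons of up to 27 bases is given here, so 83.6% cannot be called particular to skipped exons. The shortest class also had the highest median share of skipping, 35.4% against 9.26% at 28 to 60 bases and 5.6% at 61 to 100. In this class 9 exons had no read of inclusion. Whether reads that include so short an exon were aligned and counted as fully as others was not tested.

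Divisibility by 3 also went with the share. It was 39.5% among exons skipped in under 2% of reads, between 31.9% and 33.5% from 2% to 25%, 41.6% from 25% to 50% and 52.5% among the 238 exons skipped in 50% or more. Exons of low share were mostly in highly read genes, with a median of 1517 inclusion reads below a share of 2% and 13 above 50%. A skip in a weakly read gene must reach a high share to have 10 reads at all, so the classes differ in depth as well as in share. Counting each of the 2927 distinct skipped exons once left the value for all at 36.5%.

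**Figure D4:**
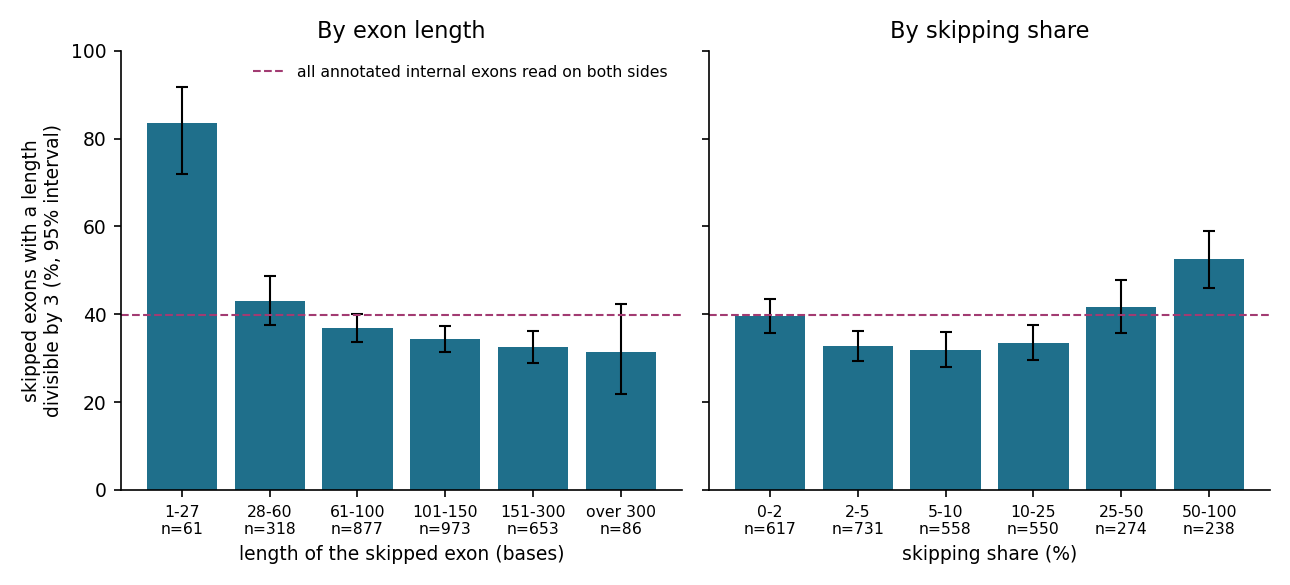
Percent of single skipped exons with a length divisible by 3 (y axis), by exon length in bases (left) and by skipping share (right), with 95% Clopper-Pearson intervals over exons as bars and the number of exons under each. The dashed line is the 39.7% of all annotated internal exons read on both sides, of every length. Above it lie the classes up to 27 bases and of 28 to 60 bases, and those skipped in 25% to 50% and in 50% or more. The intervals treat exons as independent and are no test, and the share classes differ in depth.

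Exons of 3 to 27 bases, 60 in number, included several of synaptic and cytoskeletal genes. Cacna2d3, an accessory subunit of calcium channels, skipped 18 bases in 122 and 127 reads, a share of 54.7% and 61.1%. Ptprz1, a receptor phosphatase of glia, skipped 21 bases in 235 and 180 reads, a share of 52.9% and 50.3%. In both, inclusion and skipping were about equally read. Supt5, a transcription elongation factor, skipped 12 bases in 87 and 127 reads with few reads of inclusion, a share of 95.1% and 98.4%. Nfasc, an adhesion protein of axon initial segments and nodes, skipped 15 bases in 119 and 107 reads, a share of 35.2% and 29.5% that rises to 51.7% over both replicates when only the less-read flanking intron is counted. Clasp2, which stabilises microtubule ends, skipped a pair of different 24-base exons, in 154 and 178 reads (28.8% and 33.5%) and in 74 and 66 reads (17.1% and 17.6%). Dock4 skipped 27 bases in 21 and 42 reads, with shares of 12.8% and 27.5% that differed 2-fold between the replicates.

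The effect on the coding sequence could be read for the exons found again in GENCODE M21 by transcript, exon length and both intron lengths, 2598 of 2968 (87.5%). In 2130 the exon lay inside a complete coding sequence, away from the start and stop codons. Of these 763 (35.8%) kept the frame and 1367 (64.2%) shifted it. The shifted frame met a stop more than 50 bases before the last exon junction in 1103 (80.7% of the shifts). The share hardly separated the classes as a whole, with a median of 4.82% for in-frame exons and 4.98% for frameshifts. Among the 99 coding exons skipped in 50% or more, however, 56.6% kept the frame, beside 34.8% of the 1499 skipped in under 10%. Exons wholly in the 5′ UTR, 80 in number, had a median share of 21.2%, and the 150 that hold a start codon 4.76%.

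Frame-shifting skips were found at low and at high share. Of the 1367, 389 reached a share of 10% over both replicates and 43 reached 50%. The numbers were 242 and 56 for the 763 in-frame skips. Dusp11, a phosphatase that acts on RNA, skipped a 47-base exon in 242 and 223 reads, a share of 51.4% and 49.2%. The other genes named here had lower shares. Cntnap1, the Caspr protein of paranodal junctions, skipped a 128-base exon in 83 and 84 reads, a share of 7.64% and 8.07%. Kcnc1, a fast potassium channel, skipped 934 bases in 32 and 29 reads, a share of 2.18% and 2.07%. Ptbp2, a neuronal repressor of splicing, skipped 34 bases in 22 and 20 reads, a share of 4.12% and 4.09%. In the last 3 genes the replicates were nearly equal. Bcan, a proteoglycan of the brain matrix, skipped 145 bases in 11 and 39 reads, a share of 1.15% and 2.85%, the widest replicate ratio toward replicate 2 among members with at least 50 reads.

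The proportion of genes with a member differed between the gene lists. Of the 8736 genes with at least 10 TPM in both libraries, 2257 (25.8%) had a member within the gene. The proportion rose with the level of the gene, from 0.225% of genes under 1 TPM to 7.67%, 22.6% and 33.9% at 1 to 10, 10 to 50 and 50 to 200 TPM, and was 32.2% above 200. In the list of synaptic scaffold and release genes 19 of 35 (54.3%) had a member, among cytoskeleton and motor genes 16 of 32 (50%), among splicing regulators 18 of 49 (36.7%) and among housekeeping genes 4 of 23 (17.4%). Calcium, sodium and potassium channels had 14 of 42, glutamate and GABA receptors 9 of 28, synaptic adhesion genes 9 of 24, signalling kinases and phosphatases 9 of 24, and myelin and glia genes 5 of 12. The lists were chosen for this tissue and for known neuronal splicing targets, with earlier results of these data known. They also differ in level, so these proportions and the exon lengths that follow are a description and not a result about neuronal genes. Of the single skipped exons, multiples of 3 made up 18 of 21 in cytoskeleton and motor genes, 10 of 13 in signalling genes, 19 of 27 in scaffold and release genes, 4 of 6 in myelin and glia genes and 15 of 24 in splicing regulators. They made up 11 of 19 in channels, 6 of 12 in adhesion genes, 2 of 4 in housekeeping genes and 2 of 11 in the receptors, beside 36.5% over all single skips.

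Among splicing regulators, several skips fell in genes known to set neuronal exons. Nova1, an RNA-binding protein of neurons, skipped a 72-base exon in 94 and 147 reads, a share of 22.5% and 33.3%. Rbfox2 skipped 51 bases in 60 and 71 reads, with shares of 17.99% and 24.4%. The exon's flanking introns were unequally read, and over both replicates its share of 20.98% is 42.0% against the smaller and 14.0% against the larger. Rbfox1 skipped 81 bases in 71 and 65 reads, a share of 8.39% and 8.53%, and a 40-base exon in 24 and 16 reads, a share of 2.13% and 1.54%. Hnrnpu, a nuclear RNA-binding protein, skipped a 51-base exon of its 3′ UTR in 196 and 147 reads, a share of 96.8% and 95.5%. Messages left unspliced at that place do not enter this share. Later transcripts with an intron of that length held only a part of the gene's TPM, as given below. Qk, a regulator of myelin messages, had a member with ends in different transcripts at 625 and 608 reads, which took 60.5% of the reads at its donor and 99.8% at its acceptor.

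Among channels and receptors the shares ranged widely. Itpr1, the intracellular calcium release channel abundant in Purkinje neurons, skipped 33 bases in 13 and 15 reads, a share of 0.963% and 1.32%. Cacna1a, the calcium channel pore of Purkinje neurons, skipped 36 bases in 30 and 32 reads, a share of 3.27% and 3.81%. Cacna1g, a low-voltage calcium channel, skipped 135 bases in 28 and 25 reads, a share of 30.4% and 24.2%. The shares of these 3 channels differ by more than the gap between replicates, but their depth was unlike, with 80 and 205 reads on the introns flanking the Cacna1g exon beside 1466 and 1922 in Cacna1a and 2388 and 2528 in Itpr1. Gabrd, the delta subunit of GABA-A receptors on granule neurons, skipped 156 bases in 115 and 82 reads, a share of 7.71% and 6.46%, which becomes 13.6% over both replicates against the less-read flanking intron. Grin2c, an NMDA receptor subunit of granule neurons, skipped 235 bases in 103 and 70 reads with 2 reads of inclusion in all, a share of 99.4%. Grm4, a metabotropic receptor of granule neuron terminals, skipped 217 bases in 44 and 36 reads, a share of 4.34% and 4.89%.

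Multiples of 3 made up 6 of 12 single skipped exons in adhesion genes, 19 of 27 in scaffold and release genes and 18 of 21 in cytoskeleton and motor genes. The single exons described next are all of such lengths. Others were not, such as a 59-base exon of Ptprs and a 92-base exon of Ppfia2, with shares of 25.7% and 24.9% over both replicates. The Ptprs share is 80.2% against the smaller flanking intron and 15.3% against the larger, whereas that of Ppfia2 is 26.3% and 23.7%. Nrcam, an adhesion protein of nodes, skipped 36 bases in 172 and 172 reads, a share of 47.1% and 49.9%. Dlg4, the main scaffold of excitatory synapses, skipped 66 bases in 86 and 123 reads, a share of 5.36% and 8.40%. Ank2, an ankyrin of axons, skipped 99 bases in 119 and 95 reads, a share of 64.5% and 61.9%. Kif21a, a kinesin motor, skipped 129 bases in 60 and 81 reads, a share of 48.0% and 55.1%, and the neighbouring 39 bases in 20 and 31 reads, a share of 23.5% and 30.7%. Kif1b, another kinesin, skipped 42 bases in 57 and 47 reads, a share of 14.1% and 14.5%, and 249 bases in 62 and 49 reads at 4.85% and 4.39%. Dctn1, the dynactin subunit that binds dynein, skipped 90 bases in 44 and 40 reads at the low share of 1.41% and 1.22%. Nrcam and Ank2 thus divided their reads between both paths, while Dlg4 and Dctn1 mostly kept the exon.

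Shares in myelin and housekeeping genes ranged from under 1% to about 80%. Mag, a myelin adhesion protein of oligodendrocytes, skipped a 53-base exon in 1269 and 1424 reads, a share of 78.4% and 82.6%. Mbp, the main myelin basic protein, skipped 102 bases in 11 and 16 reads beside 65525 and 75649 reads on the introns into and out of the exon, a share of 0.0350% and 0.0408%. Mobp, another myelin protein, skipped 210 bases at 0.229% and 0.224%. Cox4i1, a subunit of the respiratory chain, skipped 168 bases in 59 and 69 reads, a share of 0.343% and 0.377%, which becomes 0.609% over both replicates against the less-read flanking intron. Mbp, Mobp and Cox4i1 thus passed the limit of 10 reads at shares far under 1%. Ubb, which encodes a chain of tandem ubiquitin units, had a member over 228 bases with 78 and 52 reads. No read entered the exon from upstream, and the share was 42.9% and 28.9%. Over both replicates its share of 35.9% is 100% against the smaller flanking intron and 21.9% against the larger. How reads that match several of the tandem units were placed was not tested, so the share may not be that of an ordinary exon.

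Long skips and genes with many skips were few. The longest chain was 12 exons of Agrn, the agrin of synaptic matrix, with 26 and 12 reads and a share of 18.8% and 12.9%. Bcas1, a gene of oligodendrocytes, skipped 2 exons together in 401 and 630 reads, a share of 76.2% and 79.5%, and Fopnl 2 exons in 405 and 425 reads, 84.8% and 89.8%. Rims2, an organiser of the presynaptic active zone, skipped 3 exons in 62 and 70 reads, a share of 26.6% and 31.1%. Its relative Rims1 skipped 2 exons in 45 and 42 reads, a share of 79.6% and 91.3%, and 3 exons in 45 and 15 reads, a share of 9.74% and 3.81%. Of 2690 genes with a member within the gene, 2004 had 1 and 32 had 5 or more. Aifm3 and Ccdc136 had 12 each, Kcnt1, a sodium-activated potassium channel, had 9 and Rims1 had 8. Members of 1 gene can share exons and ends, and those within genes have 3551 distinct left and 3567 distinct right ends in genome order.

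Junctions within 1 gene whose ends come from different transcripts took a larger part of the reads at their ends than skips inside 1 transcript, with a median of 29.6% of the reads at the donor against 5.86%. Klc1, the light chain of kinesin, had 595 and 737 reads on such a junction, which was 20.2% of its donor's reads and 52.5% of its acceptor's. Fxyd1, a regulator of the sodium pump, had 803 and 657 reads, 88.1% of the donor's reads, and no whole annotated exon lay inside the junction. Dnm1 had 497 and 390 reads, 20.6% of the donor's and 88.3% of the acceptor's. Elmod1 had 411 and 378 reads, 96.8% and 99.6%. Junctions of this kind combine known ends and need not skip an exon: 156 of the 328 had a whole exon of the gene inside.

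Junctions between genes had other features. Their median span was 80093 bases, against 4615 inside 1 transcript. In 387 of the 829 each joined exon was as long as the exon that the partner gene's own intron would have reached, and these held 28.6% of all member reads. The most-read pairs joined members of 1 gene family on the same chromosome. A junction from Tuba1a to Tuba1b, both alpha-tubulins, had 6576 and 5542 reads, 12118 in all, beside 14282 and 12697 on the corresponding introns of the 2 genes. Hba-a1 to Hba-a2, both alpha-globins, had 3231 and 7408 reads, 10639 in all, beside 10643 on the second gene's own intron. Mfap1a to Mfap1b, a duplicated splicing factor gene, had 377 and 332 reads, 709 in all, where each gene's own intron had 710. From ENSMUSG00000021020 to Srp54a, of the signal recognition particle, 967 and 945 reads took 33.3% of the reads at the donor, and Srp54c gave junctions with both.

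The near equality with the genes' own introns was frequent. Of the 293 junctions between genes with at least 50 reads, 146 (49.8%) had reads within 5% of an annotated intron at one of their ends, against 24 of 580 (4.14%) inside 1 transcript. How reads that match several places were counted is not given in the table, and whether such junctions stand for joined messages was not tested. A smaller set of 66 junctions ran from the second-last exon of a gene to the second exon of another, with no further gene of the same strand wholly inside. Genes on the other strand were not counted. Of these junctions, 61 did not have reads within 5% of an own intron. Some of them again joined relatives, as Myl12a-Myl12b, 2 myosin light chain genes, with 403 and 398 reads, 39.6% of the donor's. Pvalb-Ift27, from the calcium buffer parvalbumin to a transport protein of cilia, had 72 and 52 reads, 0.663% of the donor's. Acss2-Gssos2, from an acetyl-CoA synthetase, had 59 and 49 reads, 26.3% of the donor's. Pairs named here beyond the naming rule were chosen after their values were seen.

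**Figure D5:**
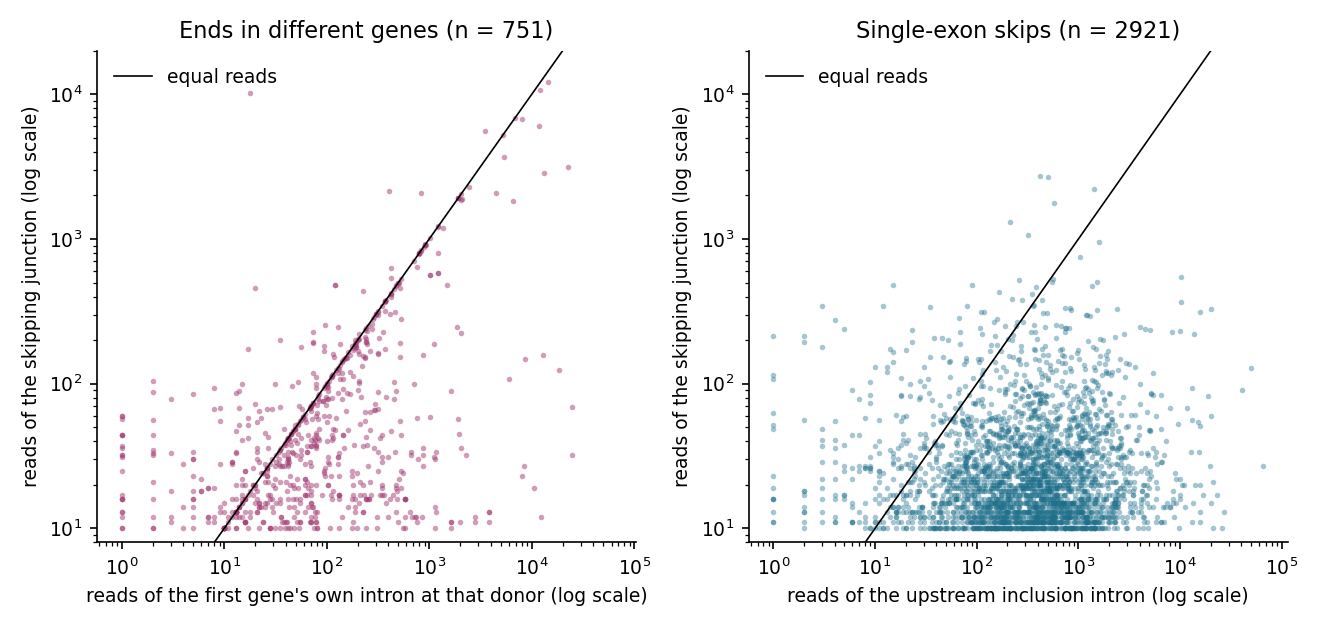
Reads of each member (y axis, log scale) against the reads of an annotated intron sharing its end (x axis, log scale), with the line of equal reads. Left, junctions between genes against the first gene's own intron at that donor, 751 with reads there, many of which lie on the line; right, 2921 single-exon skips against the upstream inclusion intron, most of them far below the line.

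Of 8 junctions between globin genes, 7 had a higher scaled count in replicate 2, and Hbq1b-Hbq1a had a lower one, with 20 and 15 reads (log2 ratio -0.38). Of the 12 members with at least 50 reads that were 2-fold higher in replicate 2, 4 joined Hba-a1 to Hba-a2 or Hbb-bs to Hbb-bt, with log2 ratios of 1.14 to 1.30. Globins are proteins of red blood cells, and Hba-a2 itself stood at 285 and 628 TPM in the 2 libraries. A different number of red cells and a different amount of RNA per cell cannot be told apart here, and which library is replicate 2 is not known. The highest ratio among the others toward replicate 2 was that of Bcan, and toward replicate 1 those of Lrrc20 (47 and 13 reads), Rnft2 (47 and 15) and Rims1 (45 and 15).

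Part of the skips had an intron of the same length in a later annotation. Among members within genes, 694 of 3679 that could be looked up (18.9%) had an intron of the same length in the same gene in GENCODE M21 that Ensembl 65 lacked. The same look-up found 99.7% of 143294 annotated junctions. How often a different intron of the gene has the same length was not tested. The proportion rose with the reads, from 12.2% of members with 10 to 19 reads to 42.2% of those with 100 or more, and with the share, from 10.7% under 2% to 38.9% at 50% or more. Later transcripts holding the intron included protein-coding ones for 373 members and ones marked for nonsense-mediated decay for 208. Of the 118 in-frame coding skips found later, 95 were in protein-coding transcripts and 14 in transcripts marked for decay. Of the 194 with an early stop, 127 were in transcripts marked for decay. In-frame and early-stop skips were found later about equally often, in 15.7% of 752 and 17.7% of 1098.

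Later transcripts were named for several of the exons above. The skips of Atp6v1h, Camk2g, Pacsin2, Ap1ar, Ip6k2, Prdm10 and Papss2 had an intron of their length in a protein-coding M21 transcript, and those of Dusp11 and Ptbp2 in transcripts marked for decay. No intron of that length was found for Epn1, Cacna2d3, Ptprz1, Nova1, Supt5 or Nbea. Where the later transcript was already quantified by the authors, as for 176 members, the median level was 2.91 and 2.42 TPM in the 2 libraries. The later Atp6v1h transcripts stood at 55.1 and 46.4 TPM of the gene's 85.9 and 76.1, and those of Hnrnpu, marked for decay, at 24.8 and 19.0 TPM of 59.4 and 53.3.

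Beyond length, the skipped exons had base composition close to that of other internal exons. Their median GC content was 51.5%, beside 51.6% for 22749 other internal exons of the same transcripts, and 55.4% ended in AG beside 56.8%. The introns around them were longer, with medians of 1606 bases upstream and 1613 downstream beside 1214 and 1105. By share, they were 1457 and 1460 around exons skipped in under 10% of reads, 2201 and 2068 at 10% to 50%, and 1702 and 1545 at 50% or more, so they did not rise steadily with the share. In position, 552 of the 2598 placed exons (21.2%) were the second exon of their transcript and 391 (15.1%) the second-last. The same proportions of the 22749 other exons are not given here, so no preference of position can be read from these. Intron lengths were not matched by position. All values of this paragraph are over exons of the same genes, described with no test.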

How the data were processed

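Polyadenylated RNA of cerebellum was sequenced in 2 libraries. The authors deposited read counts per splice junction on mm9, with the reads of each replicate and an irreproducibility fraction, and RPKM values per Ensembl 65 exon and transcript, per the file headers. For each library they deposited TPM values and expected counts per gene and transcript on mm10, summing over genes to 79771873 and 80281011 expected counts. The aligner is not given in the sources used here.

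Junctions were matched to Ensembl 65 introns with Python 3.11.15, pandas 2.3.3 and scipy 1.17.1, checked on simulated junctions. Where several annotated paths fit, the one with the fewest exons was taken. Mm9 and mm10 (GENCODE M21) were joined by gene, transcript and lengths, never by coordinates. Symbols were found for 98.6% of member genes. Deposited exon RPKM equals the sum of its transcripts' RPKM for 100% of 560538 values (tolerance 0.1%), so the planned ratio of skipped to flanking exon RPKM, 1 at the median, measures no skipping. The irreproducibility fraction was an alternative filter.

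Members and lists were chosen with earlier results of these data known. Named by rule were the 15 most-read members and the 3 most-read between genes, the 15 highest shares with at least 20 reads, extremes of length and exon number, up to 3 per list, the 3 widest replicate ratios each way, and genes with 5 or more members; others were chosen after their values were seen. The count minimum, reads per replicate, inclusion intron, path, scaling and left-out replicates were varied. Some members are not reported here.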

Additional observations from a re-analysis of the deposited data

How the results depend on the processing

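The count minimum moved the numbers most. At minimums of 5, 20 and 50 reads in place of 10, the members numbered 7869, 2434 and 969 in place of 4568, their genes 4214, 1504 and 575 in place of 2690, junctions inside 1 transcript 6177, 1712 and 580 in place of 3411 and single-exon skips 5270, 1522 and 525 in place of 2968. The share of members between genes was 14.8%, 22.2% and 30.2% in place of 18.1%. The median skipping share was 3.61%, 9.78% and 19.95% in place of 5.91%, and lengths divisible by 3 made up 38.5% and 44.6% at 20 and 50 reads in place of 36.5%. Members 2-fold apart between replicates numbered 2576, 263 and 28 in place of 1044. At 50 reads, 349 skips in place of 914 reached a share of 10% in both replicates, and 228 in place of 694 members had a later intron. The median share was 7.89% against the smaller flanking intron, 4.96% against the larger and 5.596% with at least 10 inclusion reads. With the path of most inclusion reads, chosen after seeing the data, it was 5.83%. Shares of single named exons also depend on the flanking intron. Of 217 named single-exon skips, 109 moved by more than the standard deviation of their 2 replicates against the smaller intron. Against the larger intron 88 did. The Nova1 share of 28.1% over both replicates, for example, was 35.8% against the smaller and 23.1% against the larger. Leaving out a replicate and asking for 10 reads in the other alone, members ranged from 2538 to 2597, those inside 1 transcript from 1788 to 1839, single-exon skips from 1583 to 1628, the median share from 9.52% to 9.82% and skips at a share of 10% from 784 to 798. At least 3 reads in each replicate left 4376 members and an irreproducibility value of at most 0.1 left 4559. Of all junctions inside 1 transcript, 2388 held 1 distinct exon of the gene. No paired analysis was possible because there is only 1 group. Depth limits low shares: a skip had to have 10 reads, so weakly read genes appear here at high shares alone.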
